A study of Sus scrofa with 24 samples.

Results

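Interferon-stimulated genes are the genes that cells switch on when they sense interferon, and 39 of them were taken as a list of symbols. Of the 39 symbols, 36 matched an Ensembl identifier of the 25880 in the table of read counts, and these 36 are the members described here. IFIT3, OAS1 and XAF1 matched none and were not analysed here. Their transcripts were sequenced from the dorsal subcutaneous fat of 24 Iberian piglets, all male and 33 days old, sampled 5 days after weaning and each taken from its own litter. The sows received the diets from day 85 of gestation to weaning on day 28 of lactation. All-rac-α-tocopheryl acetate, a form of vitamin E, was added at 100 mg/kg of feed in VE, at 30 mg/kg in HT, at 100 mg/kg in VEHT and at 30 mg/kg in C, so the control feed was itself supplemented. Hydroxytyrosol, a phenol of olives, was added at 1.5 mg/kg in HT and VEHT and at 0 mg/kg in VE and C. There were 6 piglets per diet, and the supplements could reach them only through their mothers.

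Type I interferons bind a receptor made of IFNAR1 and IFNAR2, whose kinases JAK1 and TYK2 pass the signal to STAT2. With IRF9 it takes part in a complex that binds a short DNA element, the interferon-stimulated response element (ISRE), in front of the genes that make up the antiviral state. Interferon gamma, made mainly by T cells and natural killer (NK) cells, acts through another element, the gamma-activated sequence (GAS), and raises an overlapping set of genes. In fat, adipocytes, vessel cells and macrophages can all respond.

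The libraries held 36614639 to 61919211 gene counts. Markers of adipocytes (9 of 9 found) summed to 12902.5 to 26733 CPM (counts scaled to the size of the library) in VE, 6611 to 22778 in HT, 2685 to 19041 in VEHT and 2763 to 22542 in C, so adipocyte transcripts were present in every library. Skeletal muscle markers (6 of 11 found) summed to 2.34 to 19192 CPM in VE, 132 to 32792 in HT, 15.6 to 41209 in VEHT and 5.95 to 19620 in C. They were at 32792 CPM in HT animal G121 and 41209 CPM in VEHT animal G164, above the adipocyte sums there of 6611 and 17972 CPM. The same held for VEHT animal G208 (38093 against 6724 CPM), HT animal G012 (23941 against 17688 CPM) and C animal G025 (19620 against 9068 CPM). In the libraries of C animals G041 and G047 and VEHT animal G141, the mean log2 CPM of 15 macrophage markers was 8.87 to 9.25, against 3.82 to 6.96 in the other 21 libraries, and that of 10 T cell markers was 4.31 to 4.89, against -1.31 to 3.09. These 3 libraries are called immune-rich below, and results are given with and without them. Adipocyte markers summed to 2685 to 2987 CPM in them, against 6611 CPM or more in the other 21, and endothelial markers to 319 to 499 CPM, against 784 or more. Plasma cell markers summed to 826 to 1418 CPM, against 405 or less, and neutrophil markers to 331 to 522 CPM, against 89.0 or less. Reads of IFIT1 and IFIT2 may be mixed with those of LIPA, of PARP9 with DTX3L, of STAT2 with IL23A, of UBA7 with TRAIP and FAM212A, of ADAR with CHRNB2, of SP110 with SP140, of PML with STOML1, and of ISG15 with LOC110261384, because these gene pairs overlap in the RefSeq annotation and the strand setting of the counting was not given in the sources used here. MX1 and MX2, GBP1 and GBP2, and IFIT1 and IFIT5 are related copies whose reads can be exchanged.

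The sequences in front of the members carried the letters of the ISRE far more often than those of other genes. Its core, a pair of GAAA blocks with any 2 bases between them, searched on both strands in the 300 bases from 250 before to 50 after the gene start (Sscrofa11.1, RefSeq genes), was found for 20 of the 39 listed genes (51.3%), against 700 of 19559 protein-coding genes (3.58%). The GAS letters TTCNNNGAA were found for 2 of the 39 (5.13%), IRF9 and BST2, against 7.12% of all, and the ends of an ISRE match and of a GAS match can share letters. The ISRE core also fits other proteins of the IRF family. ISG15, the ubiquitin-like modifier, had 3 matches, IFI6 and BST2 had 2, and IFIH1 had 3, of which the stretch shown holds 2. The stretches below, from 5′ to 3′ on the strand of the gene with ISRE matches in capitals, show clusters of matches (ISG15, IFI6, BST2, IFIH1) and single matches at different distances from the start (IFIT1, RSAD2, USP18, GBP2). They lie at chr6:63363032-63363111 (+) for ISG15, chr6:84858069-84858119 (-) for IFI6, chr2:60305070-60305149 (+) for BST2, chr15:68985262-68985341 (-) for IFIH1, chr14:101237359-101237403 (+) for IFIT1, chr3:128897895-128897974 (-) for RSAD2, chr5:70183143-70183222 (+) for USP18 and chr4:127408723-127408767 (-) for GBP2.
ISG15: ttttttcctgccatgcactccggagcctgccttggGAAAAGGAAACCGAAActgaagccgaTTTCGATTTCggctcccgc
IFI6: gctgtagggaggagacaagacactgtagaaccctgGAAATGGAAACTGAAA
BST2: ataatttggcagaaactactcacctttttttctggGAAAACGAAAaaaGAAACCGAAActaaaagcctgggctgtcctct
IFIH1: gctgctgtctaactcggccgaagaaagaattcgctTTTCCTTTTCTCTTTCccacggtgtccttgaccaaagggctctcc
IFIT1: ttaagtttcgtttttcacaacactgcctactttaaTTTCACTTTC
RSAD2: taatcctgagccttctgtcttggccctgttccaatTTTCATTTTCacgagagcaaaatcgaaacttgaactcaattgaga
USP18: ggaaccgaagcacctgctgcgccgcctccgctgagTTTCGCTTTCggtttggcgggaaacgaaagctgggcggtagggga
GBP2: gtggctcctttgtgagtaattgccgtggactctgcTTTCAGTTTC
For IFI6, IFIT1 and GBP2 the match itself reaches the gene start. No match of either element was found in the windows of MX1, MX2, GBP1, STAT2 and IRF7, among others, which says only that these letters are not in those windows.

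The members differed widely from piglet to piglet within each diet, and they did so together. In the 21 libraries that were not immune-rich, the within-diet SD of a member's log2 CPM was 0.963 at the median, from 0.406 for SP110 to 2.42 for ISG20, against a median of 0.368 over the 13280 genes with a mean CPM of 1 or more. All 36 members lay above that median. The mean log2 CPM of the members per library was lowest at 3.88, had its median at 4.64 and was highest at 6.63 in VE. It was 4.30, 5.27 and 6.58 in HT, 4.25, 5.82 and 6.24 in VEHT, and 4.72, 5.58 and 6.41 in C. The ranges of the 4 diets overlapped. The lowest 8 libraries came from VE, HT and VEHT, up to 4.70 in VEHT animal G208, and C animal G117 came next at 4.72. HT animal G189 was among the 6 highest of 24 libraries for 32 members, VE animal G091 for 31, HT animal G121 for 30 and C animal G025 for 26. VE animal G179 was among the 6 lowest for 34 members, VEHT animal G164 for 31, and VE animal G077, HT animal G012 and HT animal G066 for 26, 26 and 25. In bulk tissue, more cells of a responding type and more RNA per cell cannot be told apart.

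**Figure D1:**
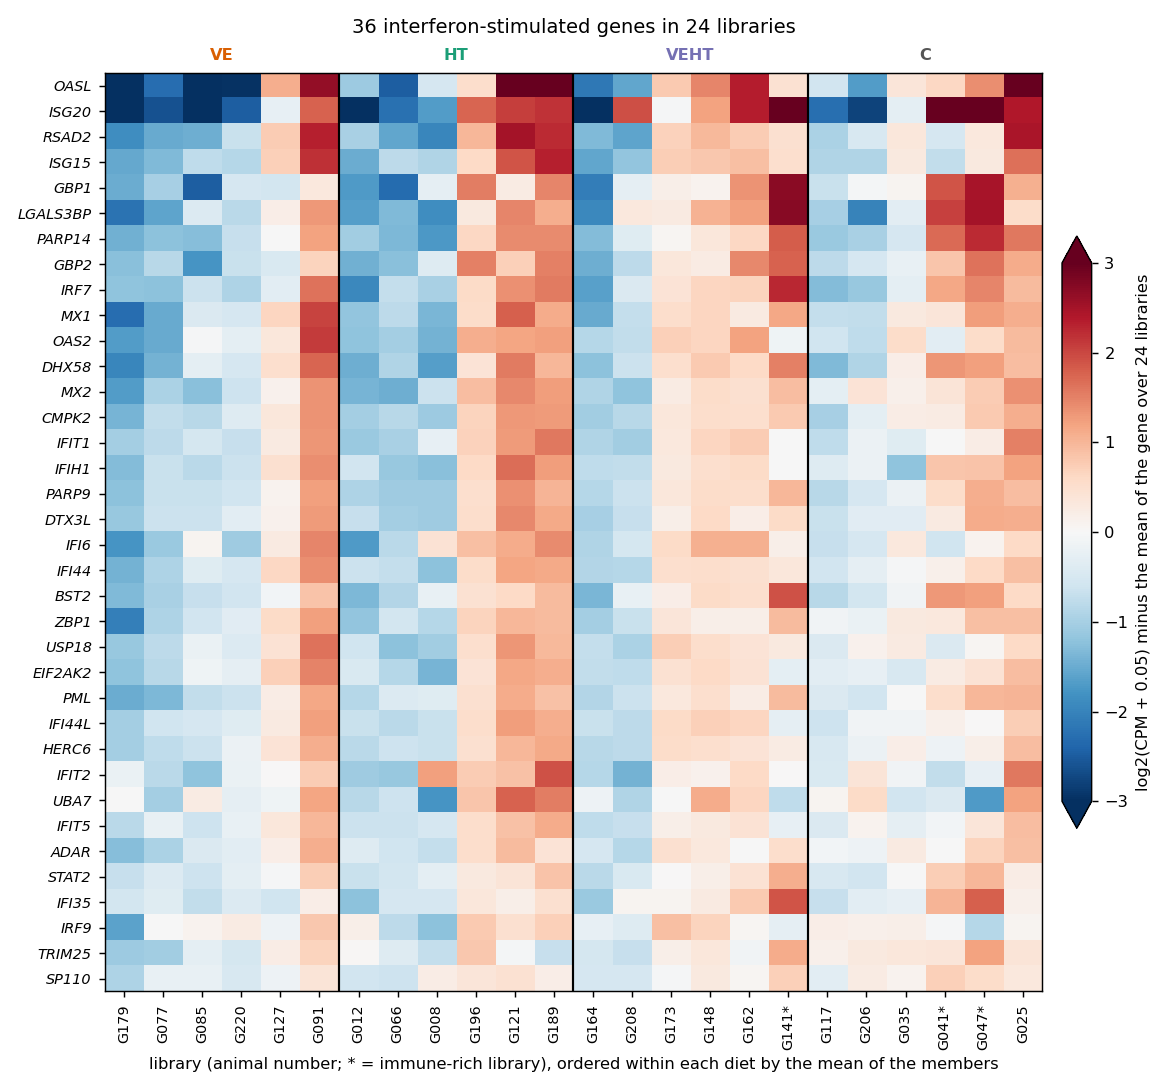
Each cell of the heat map is log2(CPM + 0.05) of 1 member (rows, ordered by their slope on T cell markers) in 1 library (columns, by diet and, within a diet, by the mean of the members), minus the mean of the gene over the 24 libraries. Animals G091, G189, G121 and G025, from 3 diets, are high for nearly the whole list, and the immune-rich libraries (asterisks) are high mainly for ISG20, GBP1, LGALS3BP, PARP14, IRF7, BST2 and IFI35.

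Among the factors that carry the signal, STAT2, which works with IRF9 at the ISRE, had its lowest, median and highest levels at 46.1, 58.3 and 124 CPM in VE, 46.4, 76.1 and 135 CPM in HT, 42.1, 79.4 and 158 CPM in VEHT and 49.6, 80.2 and 148.02 CPM in C. The ranges of the diets overlapped almost entirely. IRF7, the factor that amplifies type I interferon production, spanned 8.34 to 99.9 CPM in the 21 libraries, an 11.98-fold range. IRF9 was scarcely counted, at 0.214 to 1.46 CPM, and its values are correspondingly imprecise.

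Of the sensors and of the proteins they act with, EIF2AK2, the kinase PKR that stops translation on double-stranded RNA, was at 31.2, 62.7 and 201 CPM in VE, 27.5, 73.9 and 161 CPM in HT, 42.2, 78.0 and 109 CPM in VEHT and 51.3, 72.7 and 136 CPM in C. Its lowest VE and HT piglets were below every C piglet, and its highest VE and HT piglets above every C piglet. IFIH1 (MDA5) and DHX58 (LGP2), which bind viral RNA in the cytoplasm, spanned 7.91-fold and 13.1-fold over the 21 libraries, and ZBP1, which binds Z-form nucleic acid, 9.93-fold. ADAR, which edits double-stranded RNA, spanned 5.19-fold. TRIM25, the ubiquitin ligase that acts on RIG-I, was at 11.13, 17.9 and 37.6 CPM in VE, 14.3, 20.3 and 41.2 CPM in HT, 14.7, 24.2 and 51.4 CPM in VEHT and 26.3, 30.3 and 54.2 CPM in C, where 5 of the 6 piglets lay between 26.3 and 30.9 CPM.

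The proteins that attack viral RNA or its translation included the widest ranges. OAS2, which makes the 2-5A messenger that activates RNase L, was at 80.2, 228 and 1083 CPM in VE, 96.0, 336 and 596 CPM in HT, 139.9, 316 and 585 CPM in VEHT and 151, 289 and 493 CPM in C. OASL, its relative without that activity in humans, was at 0.0408, 0.120 and 6.34 CPM in VE, 0.133, 1.05 and 12.2 CPM in HT, 0.182, 1.53 and 5.19 CPM in VEHT and 0.271, 1.4001 and 10.96 CPM in C. Both had their highest VE value in animal G091. IFIT2, which binds RNA and restrains translation, was at 15.0, 29.9 and 58.4 CPM in VE, 15.6, 61.2 and 129 CPM in HT, 12.95, 35.96 and 51.9 CPM in VEHT and 20.5, 30.6 and 103 CPM in C. Here 4 of the 6 HT piglets were above every VE and VEHT piglet. ISG20, an exonuclease, was at 0, 0.17 and 4.34 CPM in VE, 0.0717, 2.29 and 5.74 CPM in HT, 0.0781, 3.89 and 42.3 CPM in VEHT and 0.136, 3.84 and 34.4 CPM in C. Over the 21 libraries RSAD2 (viperin) spanned 21.9-fold, IFIT1 6.48-fold, IFIT5 3.76-fold and CMPK2, the kinase encoded beside RSAD2, 6.76-fold.

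Members that block entry, traffic or release of viruses varied in the same manner. IFI6 was at 152, 397 and 1435 CPM in VE, 159, 835 and 1379 CPM in HT, 278, 676 and 1087 CPM in VEHT and 322, 459 and 787 CPM in C. The dynamin-like GTPases MX1 and MX2 spanned 19.8-fold and 8.64-fold over the 21 libraries, and BST2 (tetherin), which holds budding particles at the cell surface, 5.04-fold. For the ISG15 system, ISG15 itself spanned 15.0-fold, from 24.8 to 373 CPM, and USP18, which removes it, 7.37-fold. HERC6, a ligase for ISG15 in mice, was at 77.6, 120.7 and 335 CPM in VE, 90.8, 161.9 and 350.2 CPM in HT, 88.5, 199 and 231 CPM in VEHT and 113, 161 and 299 CPM in C. UBA7, the enzyme that activates ISG15, was at 0.562, 1.13 and 2.76 CPM in VE, 0.314, 1.46 and 4.18 CPM in HT, 0.618, 1.12 and 2.62 CPM in VEHT and 0.329, 1.07 and 2.82 CPM in C.

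The remaining members act in ADP-ribosylation, in nuclear bodies or as guanylate-binding proteins. PARP14, PARP9 and its partner DTX3L spanned 9.90-fold, 6.07-fold and 6.01-fold over the 21 libraries. PML, the scaffold of nuclear bodies, spanned 6.28-fold and IFI44 and IFI44L 7.05-fold and 4.87-fold. LGALS3BP, a secreted glycoprotein, was at 29.7, 91.6 and 339 CPM in VE, 37.8, 112 and 378 CPM in HT, 36.2, 229 and 915 CPM in VEHT and 34.5, 156 and 777 CPM in C. SP110, a nuclear body protein, was the steadiest member, at 13.1, 21.7 and 32.8 CPM in VE, 16.4, 29.0 and 34.5 CPM in HT, 17.7, 25.4 and 41.5 CPM in VEHT and 20.1, 30.6 and 41.4 CPM in C. GBP2 was at 13.9, 28.6 and 75.4 CPM in VE, 17.6, 57.7 and 137 CPM in HT, 17.2, 58.7 and 163.8 CPM in VEHT and 27.9, 63.3 and 148.4 CPM in C.

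The first question put to the members was whether the maternal diet changed them. In VE over C, the edgeR quasi-likelihood test with a q (Benjamini-Hochberg adjusted p) of at most 0.10 and a fold change of at least 1.5 called 0 of the 36 members, beside 0 of all 17532 genes tested (0%). DESeq2 called 1 member, GBP1 (878 genes, 5.01% of all), and limma voom with quality weights 0. At an unadjusted p under 0.05, 6 members were lower in VE (8.77% of all genes were) and 0 higher (3.34%). The median log2 fold change of the members was -0.36, against -0.03 over all genes tested, and it was -0.82 without VE animal G091, -0.16 without C animal G025 and -0.07 with voom. GBP1, a large GTPase induced above all by interferon gamma, was at 37.5, 123 and 260 CPM in VE and at 130.2, 327 and 1154 CPM in C. Of the VE piglets 5 were under 150 CPM, against 1 of the C piglets. Its log2 fold change was -1.92 ± 0.59 (SE, n = 6 per diet, edgeR q = 0.310), and -1.94 ± 0.57 with a q of 0.0263 by DESeq2. Without the 2 immune-rich C libraries it was -0.95, and no longer under an unadjusted 0.05.

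IFI35, SP110, GBP2, TRIM25 and ISG20 were the other members under 0.05 in VE over C by edgeR. IFI35 was at 19.9, 23.8 and 38.0 CPM in VE and at 20.3, 32.5 and 114 CPM in C, with a log2 fold change of -0.93 ± 0.39 (q = 0.373). SP110 was at -0.52 ± 0.22 (q = 0.388), GBP2 at -1.12 ± 0.48 (q = 0.390), TRIM25 at -0.70 ± 0.31 (q = 0.400) and ISG20 at -3.45 ± 1.55 (q = 0.403). Without C animals G041 and G047, 0 members were under 0.05 (7.55% of all genes were) and the median of the members was -0.15. In VE the macrophage markers summed to 364 to 2869 CPM and the T cell markers to 29.4 to 58.9 CPM, against 477 to 15282 and 32.5 to 439 CPM in C. The mean log2 CPM of the T cell markers, which weighs each marker alike, was -1.31 to 1.43 in VE and -0.94 to 4.89 in C. With the macrophage marker mean as a covariate the median of the members was -0.21, GBP1 was at -1.29 and IFI35 at -0.40, with 0 members called by edgeR. The part of the T cell markers in the differences between diets was not tested. The count of 6 rested on single piglets, and was 15 without VE animal G091, 1 without C animal G041 or G047 or VE animal G077, G085, G179 or G220, 2 without VE animal G127 and 5 to 7 without any other.

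**Figure D2:**
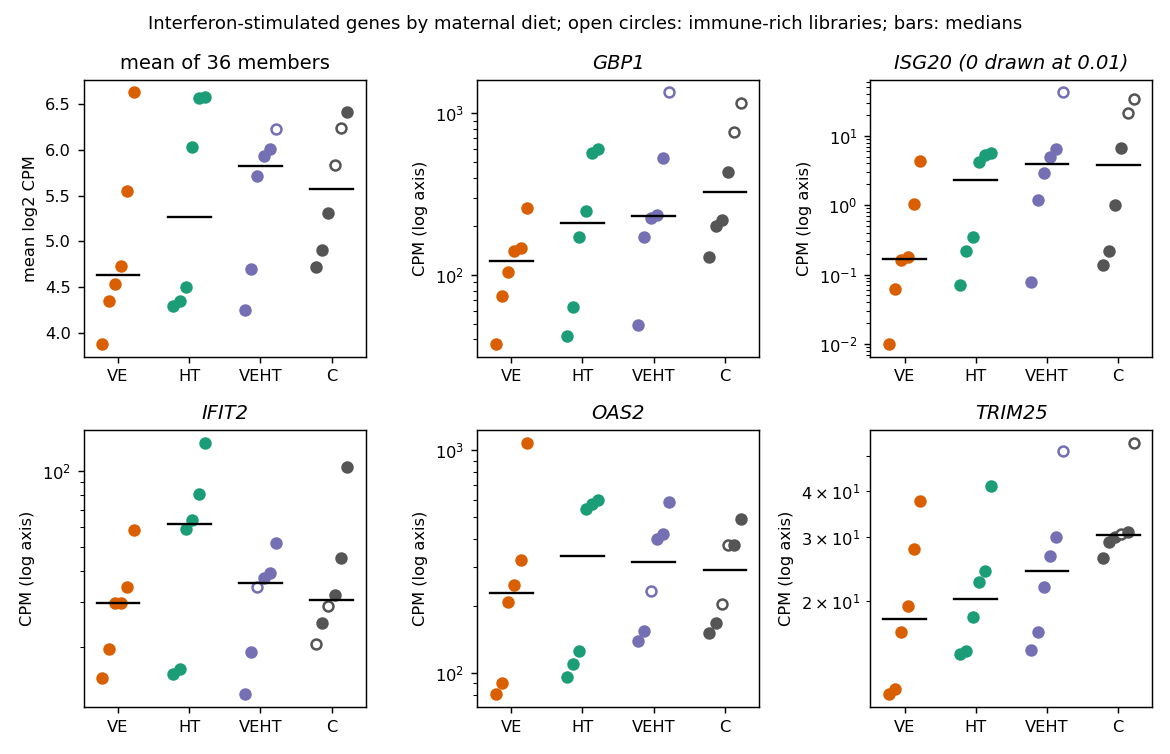
Each point is 1 library: the mean log2 CPM of the 36 members, and the CPM of GBP1, ISG20, IFIT2, OAS2 and TRIM25 on log axes, in VE, HT, VEHT and C, with the median of each diet as a bar and immune-rich libraries as open circles. The diets overlap in every panel, and the highest GBP1 and ISG20 values, 1347 and 42.3 CPM in VEHT and 1154 and 34.4 CPM in C, belong to immune-rich libraries.

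In HT over C edgeR called 0 of the 36 members (0 of 17468 genes, 0%), DESeq2 0 (4.24% of all genes) and voom 0. At an unadjusted p under 0.05 no member was higher (2.52% of all) or lower (10% of all), and the median was 0.02, against -0.03 over all genes. TRIM25 and ISG20 had the smallest p, at -0.59 ± 0.28 (edgeR q = 0.408) and -2.01 ± 1.33 (q = 0.547). Without the immune-rich C libraries 0 members were under 0.05 (4.82% of all genes were), ISG20 was at 0.42 and the median of the members at 0.21. That median was 0.26 with voom, and ran between -0.25 without HT animal G121 and 0.21 without HT animal G008. VEHT over C gave 0 calls by edgeR, DESeq2 and voom (0% and 0.00568% of all genes by edgeR and DESeq2), 0 members under 0.05 in either direction (0.738% of all genes were higher and 1.36% lower) and a median of -0.11, which was 0.24 with voom. Without the immune-rich libraries of these diets the count under 0.05 was again 0 (5.03% of all genes). These comparisons and VE over C share the 6 C libraries.

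In VE over HT, all 36 members had a log2 fold change below 0, with a median of -0.38 against -0.03 over all genes. None was called by edgeR (0% of all genes), DESeq2 (0.598%) or voom, and none was under 0.05 (4.91% of all genes were higher and 4.61% lower), the smallest unadjusted p by edgeR being 0.0738, for IFIT2 at -0.96 ± 0.49. As the members vary together from piglet to piglet, a shared sign is not 36 separate observations, and the median was -0.88, with 7 members under 0.05, without VE animal G091, and -0.15 without HT animal G121. In VEHT over VE, 0 members were called by edgeR (0% of all genes), DESeq2 (1.46%) or voom, and 3 were under 0.05 and higher in VEHT (5.87% of all genes were, and 3.17% lower): GBP1 at 1.77 ± 0.70 (q = 0.496), IFI35 at 1.01 ± 0.41 (q = 0.502) and ISG20 at 3.35 ± 1.46 (q = 0.521), all by edgeR. Without VEHT animal G141 this count was 0 (6.99% of all genes) and GBP1 was at 0.93. It was 0 without VE animal G179 too, 11 without VE animal G091, 6 without VEHT animal G164 and 1 without VE animal G085 or G127. VEHT over HT gave 0 calls by edgeR (0% of all genes), DESeq2 (0.681%) and voom, 0 members under 0.05 (6.33% of all genes were higher and 1.56% lower) and a median of -0.13. Without VEHT animal G141 the count under 0.05 was 0 as well (4.2% of all genes).

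**Figure D3:**
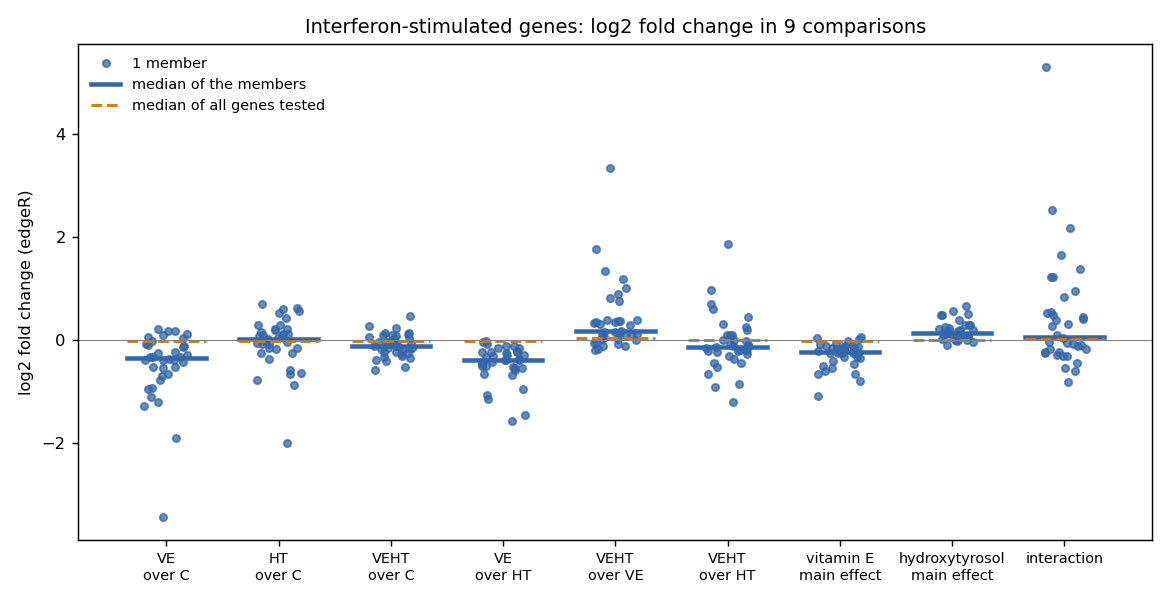
Each point is the edgeR log2 fold change of 1 member in 1 of 9 comparisons (for the interaction, the difference of the differences), with the median of the 36 members as a solid bar and that of all genes tested as a dashed bar. The medians of the members lie between -0.38 and 0.17, and the most distant points, in VE over C, VEHT over VE and the interaction, are ISG20.

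The factorial model over all 24 libraries asked for effects of either supplement at both levels of the other. The vitamin E effect had a median of -0.24 over the members, with 33 of 36 below 0, and the hydroxytyrosol effect a median of 0.14, with 31 of 36 above 0. Neither had a member called by edgeR (0% of all genes), DESeq2 (0.0398% for vitamin E and 0.0114% for hydroxytyrosol) or voom, nor a member under 0.05 (1.66% and 2.27% of all genes were higher and lower for vitamin E, 2.84% and 3.38% for hydroxytyrosol). Without the immune-rich libraries 1 member was under 0.05 for vitamin E (7.51% of all genes), IFIT2 at -0.82, and 0 for hydroxytyrosol (8.26%). For the interaction, edgeR called 0 of the 36 members, where it called 696 of 17602 genes (3.95%). DESeq2 called 1, ISG20 (7.12% of all genes), and voom 0. Under an unadjusted 0.05 by edgeR were 3 members, all positive (11.5% of all genes were, and 3.32% negative): IFI35 at 1.64 ± 0.61 (q = 0.188), ISG20 at 5.32 ± 2.07 (q = 0.209, DESeq2 q = 0.0449) and GBP1 at 2.52 ± 1.03 (q = 0.240). Without the 3 immune-rich libraries, 0 members were under 0.05 (3.76% of all genes were), and IFI35 and ISG20 were at 0.36 and 1.28. Without VEHT animal G164, IFI35 was called at 1.85 (edgeR q = 0.0887).

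The second question was how the list stood in the immune-rich libraries of C animals G041 and G047 and VEHT animal G141. The members were on balance higher there. The difference in mean log2 CPM between the 3 libraries and the other 21 was above 1 for 13 members (15.7% of all genes) and below 0 for 6, with a median of 0.75 over the members and -0.09 over all genes. The 3 libraries were the 3 highest for 7 of the 36 members, ISG20, BST2, LGALS3BP, PARP14, IFI35, SP110 and GBP1, beside 13.8% of all 17602 genes kept. GBP1 was at 1347 CPM in VEHT animal G141 and at 765 and 1154 CPM in C animals G041 and G047, against 37.5 to 603 CPM in the 21. LGALS3BP was at 915 CPM in G141 and at 571 and 777 CPM in G041 and G047, against 29.7 to 378 CPM. For several central members the 3 libraries ranked in the middle: ISG15 was at 103 CPM in G141 and at 43.7 and 90.6 CPM in G041 and G047, against 24.8 to 373 CPM, and the differences for ISG15, OAS2, IFIT1, RSAD2 and IFI6 were 0.02, 0.04, 0.08, 0.11 and -0.12. The immune-rich libraries had a member mean of 5.84 to 6.24 log2 CPM, within the 3.88 to 6.63 of the others.

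The third question was which cell markers the members followed from piglet to piglet. Each gene was fitted in the 21 other libraries on the mean log2 CPM of a marker list, with diet in the model, and slopes are in log2 units of the gene per log2 unit of the marker mean. On the macrophage markers edgeR called 0 of the 36 members at a q of 0.10, while 938 of 17620 genes (5.32%) were called with a positive slope. At an unadjusted p under 0.05 there were 0 members, and 35 of 36 slopes were above 0 with a median of 0.34. By voom 1 member was called, and the share of all genes called by voom is not given here. The largest were 1.71 ± 1.09 for ISG20 (q = 0.377), 0.85 ± 0.41 for LGALS3BP (q = 0.242) and 0.79 ± 1.32 for OASL (q = 0.764), and the smallest -0.11 ± 0.30 for IFIT2, 0.12 ± 0.12 for SP110 and 0.15 ± 0.32 for UBA7. Over all 24 libraries 12 members were called, where 24.8% of all genes were.

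On the T cell markers (CD2, CD5, CD6, CD28 and others, 10 of 12 found), edgeR called 32 of the 36 members, all with a positive slope, while 439 of 17620 genes (2.49%) were called positive. The median slope of the members was 0.56, against -0.01 over all genes. DESeq2 called 34 members and voom 33, and the shares of all genes called by these methods are not given here. With the macrophage marker mean in the same model 32 members were called, where 3.39% of all genes were called positive. GBP2 had the smallest q, at a slope of 0.74 ± 0.08 (q = 3.43e-06), followed by GBP1 at 0.81 ± 0.10 (q = 1.97e-05). The largest slopes were those of OASL at 1.88 ± 0.27 (q = 0.000246), ISG20 at 1.84 ± 0.24 (q = 6.89e-05), RSAD2 at 1.07 ± 0.18 (q = 0.00155) and ISG15 at 0.90 ± 0.15 (q = 0.00145). IRF9, TRIM25, SP110 and UBA7 were not called (q from 0.131 to 0.450). With each of the 21 libraries left out in turn, 31 to 33 members were called. Because the members vary together from piglet to piglet, the calls on a marker list are not separate observations.

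**Figure D4:**
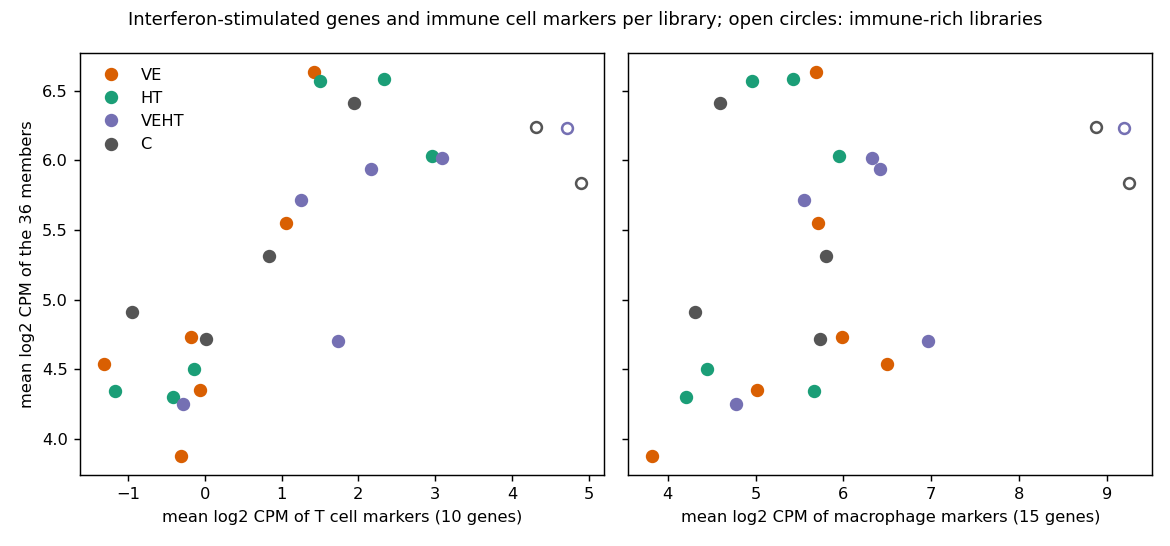
Each point is 1 library, with the mean log2 CPM of the 36 members on the vertical axis and that of 10 T cell markers (left) or 15 macrophage markers (right) on the horizontal axis, by diet, with immune-rich libraries as open circles. In the 21 filled points the member mean is at most 4.91 where the T cell marker mean is under 0 and lies anywhere from 4.25 to 6.63 at macrophage marker means between 4.59 and 5.69, and the 3 open points lie to the right of all others without being the highest.

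By role, the T cell slope was called for 2 of 3 signal factors, 5 of 6 sensors, 8 of 8 members acting on viral RNA, 4 of 4 that block entry and release, 3 of 4 of the ISG15 system, 8 of 9 of the ADP-ribosylation and nuclear body group and 2 of 2 guanylate-binding proteins. These counts by role are likewise not separate observations. STAT2 had a slope of 0.36 ± 0.05 (q = 0.000109) and IRF7 of 0.72 ± 0.12 (q = 0.00158). MX1 was at 0.71 ± 0.15 (q = 0.0135) and IFI6 at 0.55 ± 0.13 (q = 0.0245). In fold terms, a doubling of the T cell marker mean went with 1.86-fold more ISG15, 1.64-fold more MX1 and 1.28-fold more STAT2. The 4 piglets highest for the list, HT animal G189, VE animal G091, HT animal G121 and C animal G025, had T cell marker means of 2.34, 1.43, 1.50 and 1.94, and the lowest, VE animal G179 and VEHT animal G164, of -0.30 and -0.29. VEHT animal G208 stood off this relation, with a T cell marker mean of 1.73 and a member mean of 4.70. The highest T cell marker means of the 21 libraries were 3.09 in VEHT animal G162 and 2.96 in HT animal G196. Their member means were 6.02 and 6.03. The lowest T cell marker means were -1.31 in VE animal G085 and -1.17 in HT animal G066, with member means of 4.54 and 4.35.

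**Figure D5:**
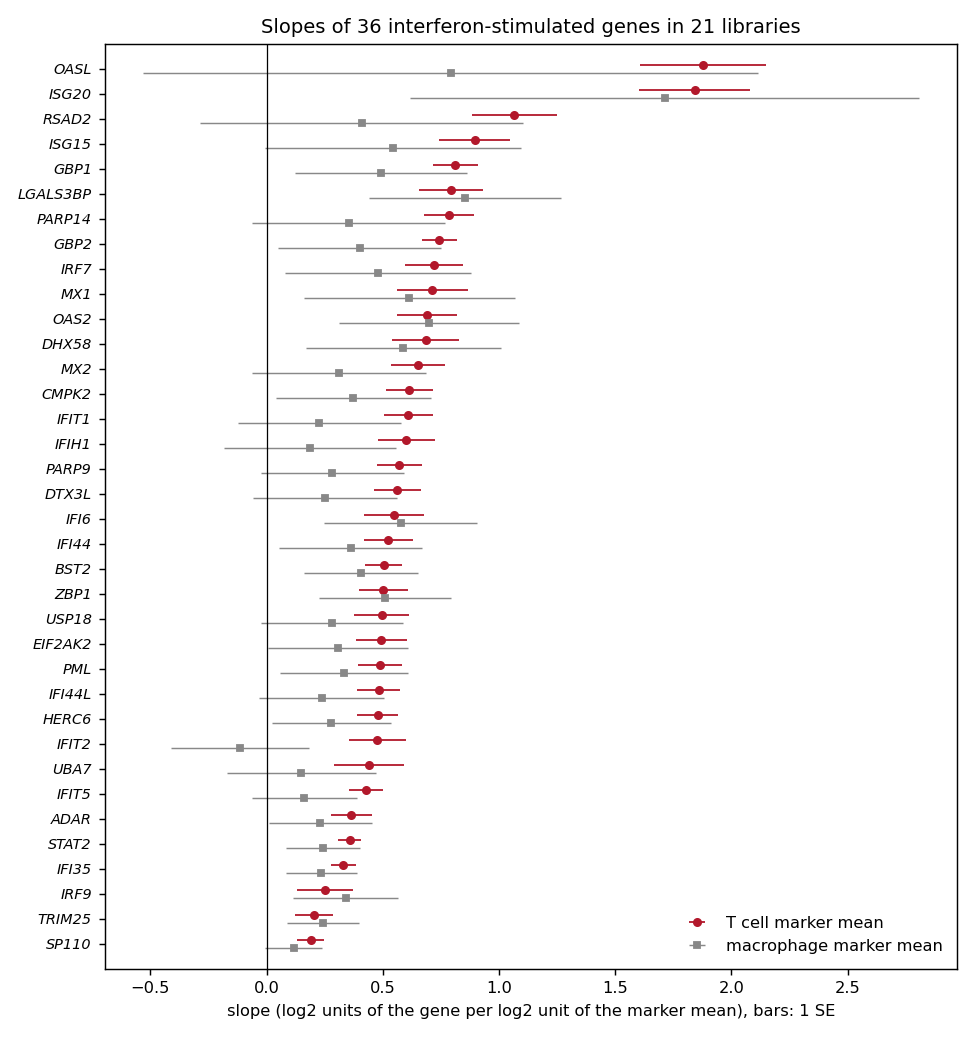
Slopes of the 36 members, in log2 units per log2 unit of the marker mean, on the T cell (circles) and macrophage (squares) marker means in 21 libraries, with bars of 1 SE. All T cell slopes lie above 0, from 0.19 for SP110 to 1.88 for OASL, and the macrophage slopes have wider errors, from -0.11 for IFIT2 to 1.71 for ISG20.

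The same fit was made on each of the other marker lists. On NK cell markers (NKG7, PRF1, GNLY and others, 6 of 7 found) edgeR called 34 of the 36 members with a positive slope, where 2.57% of all genes were, and the median slope was 0.69. The T cell and NK cell lists were fitted apart, and their parts were not separated, so these fits do not tell the 2 cell types apart. By edgeR 0 members were called on plasma cell, plasmacytoid dendritic cell, neutrophil, endothelial, adipocyte and skeletal muscle markers, where 0.114%, 0%, 0.136%, 5.52%, 1.99% and 11.1% of all genes were called positive. At an unadjusted p under 0.05 there was 1 member on the endothelial list and 0 on the others. Of the plasmacytoid dendritic cell list, CLEC4C, IL3RA and LILRA4 were not matched, so its most specific markers were not analysed here.

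Of the interferon genes on the list, IFNB1 had 14 counts in all 24 libraries together, IFNK 1 and IFNE 0, while IFNL1, IFNL3 and IFNW1 were not matched and interferon alpha genes were not analysed here. IFNG had 1555 counts, at 0 to 2.43 CPM (median 0.205) in the 21 libraries and at 3.95 to 10.96 CPM in the immune-rich ones, and its slope on the T cell markers was 1.33 ± 0.18 (edgeR q = 0.000116). All 7 interferon gamma targets tested were called on the T cell markers with a positive slope, among them the T cell attracting chemokines CXCL9 at 2.06 ± 0.21 (q = 3.43e-06) and CXCL10 at 1.98 ± 0.21 (q = 6.93e-06), IRF1 at 0.55 ± 0.06 (q = 1.45e-05) and IDO1 at 1.34 ± 0.30 (q = 0.0160). RIGI, the RNA sensor RIG-I, was called at 0.77 ± 0.14 (q = 0.00262). The receptor chain IFNAR1 was not called, at -0.01 ± 0.05 (q = 0.983). Of the other lists, 3 of 8 kinases and factors, 6 of 12 sensors and adaptors, 0 of 5 receptors and 0 of 4 inhibitors were called. Over all 36 pathway genes fitted, edgeR called 16 on the T cell markers (2.49% of all genes with a positive slope). It called 8 on the macrophage markers (5.32% of all genes), and all of these slopes were positive.

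Of the 45 pathway genes listed apart from the members, 36 were tested in VE over C and in HT over C. In VE over C, 18 of them were under an unadjusted 0.05 by edgeR and lower in VE (8.77% of all genes were), and 0 higher, with a median log2 fold change of -1.14. In HT over C 15 were lower (10% of all genes) and 0 higher, and in VEHT over C, with 37 tested, 0 were lower (1.36% of all genes) or higher (0.738%), with a median of -0.22. None was called by edgeR in any pair of diets, where it called 0% of all genes. DESeq2 called 5.01% of all genes in VE over C and 4.24% in HT over C. Its calls for the pathway genes are not given here. For the interaction 9 of the 36 were called by edgeR (3.95% of all genes), among them IRF8 at 5.69 ± 1.38 (q = 0.0482), IDO1 at 10.4 ± 2.59 (q = 0.0522) and IFNAR2 at 1.80 ± 0.54 (q = 0.0857). Without the 3 immune-rich libraries 0 of them were called for the interaction (0% of all genes) and 2 were under 0.05 (3.76%), as were 1 in VE over C (7.55%) and 2 in HT over C (4.82%). IRF8 was at 193 to 205 CPM in the immune-rich libraries and at 2.89 to 26.6 CPM in the other 21, unlike ISG15 or OAS2, which were within the range of the others there.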

How the data were processed

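The authors trimmed the reads with Trim Galore, aligned them to Sscrofa11.1 with HISAT2 and used HTSeq to count reads by Ensembl gene, and deposited the raw counts that entered the tests. Versions, annotation release and strand setting are not given in the sources used here. Entries without a gene (no feature, 8.31% to 16.5% of a library, and 4 others) were left out. Symbols came from an Ensembl name table (14857 of 25880 identifiers). A gene with no reads in at least 75% of a comparison's libraries was left out. Tests used edgeR 4.0.16 (quasi-likelihood, TMM) in R 4.3.3 with Benjamini-Hochberg adjustment over all genes; DESeq2 1.42.0, limma 3.58.1 voom, RLE factors, other filters, a q of 0.05, a macrophage covariate, 1 fit of 24 libraries and leave-one-out fits were alternatives. Log2 CPM is TMM-scaled with a prior count of 2. The members, lists and tests were chosen with earlier results of these data known. The slope on T cell markers was planned as an alternative and became a result of its own after its values were seen. Members with values by diet were the one with the highest mean in each role, the 2 with the smallest p in each pair and the interaction, the 3 largest and 3 smallest macrophage slopes and those called. The fits were also run on simulated counts with known changes. Each gene was drawn on its own there, so the shared variation of the members was not simulated. Library columns carry an animal number and a diet, and each piglet counts as 1 replicate. The result of 1 pathway gene outside the list is not reported here.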

Additional observations from a re-analysis of the deposited data

Results flagged for a closer look

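TRIM25 in C had 1 library far from the other 5: animal G047, an immune-rich library, was at 5.76 log2 CPM, and the next highest at 4.95. The gap was 0.775 of the range of the diet, above the critical value of 0.625 for 6 samples. It was the 1 such library in 64 groups of 6 examined. Chance alone gives about 1 in every 20 groups, so 1 in 64 is no more than chance gives.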

How the results depend on the processing

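No paired analysis was possible because the library columns carry no replicate numbers, and the paper describes no pairing of piglets across diets. Each sow received a single diet, and each piglet came from its own litter. The median log2 fold change of the members changed sign with voom in VEHT over C (0.24), with the macrophage covariate in VEHT over VE (-0.07) and the interaction (-0.23), and without the immune-rich libraries in the interaction (-0.11). With libraries left out in turn it ran from -0.25 to 0.21 in HT over C, -0.37 to 0.08 in VEHT over C, -0.29 to 0.09 in VEHT over HT and -0.11 to 0.70 in the interaction, and kept its sign in the other comparisons. The count of members called in VE over C, 0 by edgeR, was 1 with DESeq2 (GBP1). That for the interaction, also 0 by edgeR, was 1 with DESeq2 (ISG20) and 0 to 1 when libraries were left out in turn. On the macrophage markers the count was 12 over all 24 libraries, 1 with voom and 32 with T cell markers in their place. The direction turned for ISG20 in HT over C, to 0.86 with voom, 0.42 without the immune-rich libraries by edgeR and 0.40 by DESeq2, and for IFI35 in VEHT over HT, to -0.35 with the macrophage covariate. None of these was called, and the cause was not tested. On the T cell markers 31 to 34 members were called under all alternatives. UBA7, IRF9, OASL and ISG20 have the fewest counts.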

Other observations

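Outside the list, the genes whose log2 CPM followed the member mean most closely within diets in the 21 libraries, chosen after their values were seen, were HERC5, FBXO39 and UBE2L6. UBE2L6, the conjugating enzyme for ISG15 in humans, was at 26.6 to 211 CPM, with a slope on the T cell markers of 0.66 ± 0.10 (edgeR q = 0.000514). HERC5, an ISG15 ligase in humans, was at 9.96 to 114 CPM, with a slope of 0.80 ± 0.13 (q = 0.00118). FBXO39 was at 20.5 to 175 CPM, with a slope of 0.75 ± 0.12 (q = 0.00061). As these genes were chosen for following the member mean in the same 21 libraries, their slopes are no result separate from those of the members. In the RefSeq annotation FBXO39 overlaps the unmatched member XAF1 on the same strand over 15025 bases, so its counts cannot be told apart from those of XAF1.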
